A study of Mus musculus with 12 samples.

Results

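The 9 genes described here mark the regulatory T cell (Treg) lineage in the mouse. They are the transcription factor genes Foxp3, Ikzf4, Ikzf2 and Plagl1, the surface protein genes Gpr83, Izumo1r and Nrp1, and Capg and Swap70, whose products act on the actin cytoskeleton. They were chosen by name, all 9 were found among the 24421 gene symbols of the count table, and all 9 passed the filter on low counts that left 12461 genes for testing. CD25, encoded by Il2ra, is a subunit of the high-affinity interleukin-2 receptor. The question was how these genes stood with and without CD25 in the effector and central subsets of Tregs.

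Bulk RNA was sequenced from 4 groups of 3 libraries: CD25 knockout effector Tregs (KO eTreg), CD25 wild-type effector Tregs (WT eTreg), CD25 knockout central Tregs (KO cTreg) and CD25 wild-type central Tregs (WT cTreg). Mice of all groups carried Foxp3eGFPERT2+/+ and R26tomato+/+ alleles, were given intraperitoneal tamoxifen at 2 mg/kg over 5 days, and were harvested 10 days after induction. Live CD4+ cells with the GFP and tdTomato reporters were sorted as CD62L-low effector or CD62L-high central cells, KO cells were also gated as CD25-low, and each library pooled spleen and lymph nodes of 2 to 3 mice. The genotype field of the labels gives CD25FL/FL to the libraries titled WT and CD25WT/WT to those titled KO; here the titles and cell type labels set the groups. Age, sex and any shared litter or sort day were not known here. The GFP gate selected cells with an active Foxp3 reporter, so the Foxp3 level is not independent of the sort, and cells that had lost the reporter were not collected. All KO against WT differences below join the genotype with the CD25-low gate, and the design cannot tell them apart.

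Foxp3 is an X-linked forkhead transcription factor required for Treg development and function. Interleukin-2 signals through its receptor to the factor STAT5, which is known to bind the Foxp3 locus and to help maintain its expression in mature Tregs. The other 8 genes are enriched in mouse Tregs over conventional CD4+ T cells to various degrees; Eos (encoded by Ikzf4) and Helios (Ikzf2) are zinc finger factors of the Ikaros family that act with Foxp3 or in parallel to it.

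Read depth was similar across libraries, at 14567313 to 19121577 counts. Il2ra, the targeted gene, had 125, 116 and 132 CPM (read counts scaled to a common library total, with TMM normalisation) in KO eTreg replicates 1 to 3, and WT eTreg had 464, 562 and 542 CPM. KO cTreg had 122, 112 and 113 CPM, while WT cTreg had 576, 523 and 579.8 CPM. The KO libraries were thus all lower, as titled, though the CD25-low gate also selects for this; the counts cover the whole gene, so they do not show which exons remained. The 6 T cell marker genes summed to 3100 to 3350 CPM in KO eTreg, 2930 to 3120 in WT eTreg, 3120 to 3250 in KO cTreg and 2630 to 2770 in WT cTreg, while B cell, CD8, myeloid, NK, dendritic and red cell lists each summed to at most 16.5 CPM in any library. The NK list, of 4 genes with Klra4 at 0 throughout and Ncr1 at 0 in every group but KO eTreg, summed to 1.96 to 15.6 CPM in KO eTreg, 1.27 to 3.83 in WT eTreg, 13.3 to 16.5 in KO cTreg and 3.23 to 4.81 in WT cTreg. In KO cTreg most of it was Eomes (12.6 to 14.7 CPM, against 3.23 to 4.49 in WT cTreg), which T cells also express; its part in the KO effects was not tested. The precursor ribosomal RNA gene Rn45s took 3.19% to 3.32% of counts in KO eTreg, 4.11% to 4.34% in WT eTreg, 18.1% to 18.5% in KO cTreg and 22.4% to 24.4% in WT cTreg; its part in the differences between groups was not tested beyond the alternative scalings. Since these are bulk samples, fewer cells with a transcript and less transcript per cell cannot be told apart.

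Foxp3 (chromosome X, 7573644 to 7595245, plus strand, mm10) was lower in KO than in WT cells in both gates. It stood at 187, 158 and 182 CPM in the KO eTreg libraries, against 256, 231 and 247 CPM in WT eTreg. Central cells had levels of 233, 217 and 230 CPM in KO cTreg, against 386, 385 and 407 CPM in WT cTreg. Within each gate every KO library lay below every WT library. The log2 fold change, KO against WT, was -0.48 ± 0.06 in eTreg (SE, n = 3 per group, adjusted p = 2.05e-04) and -0.79 ± 0.06 in cTreg (adjusted p = 1.47e-07) by edgeR's quasi-likelihood test, so KO cells kept 0.719 of the WT level in eTreg and 0.577 in cTreg. The difference between these effects, eTreg minus cTreg, was 0.32 ± 0.09 and missed the threshold (edgeR's adjusted p = 0.0519); it passed in DESeq2's Wald test (adjusted p = 0.0259) and over all alternatives its adjusted p lay between 0.00631 and 0.146.

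KO cTreg, with a mean of 227 CPM, overlapped WT eTreg, with a mean of 244 CPM, in the Foxp3 level. WT cTreg was the highest group and KO eTreg the lowest, both apart from their neighbours. WT eTreg were lower than WT cTreg, with a log2 fold change of -0.68 ± 0.06 (SE, n = 3 per group, edgeR's adjusted p = 3.32e-08), and KO eTreg were lower than KO cTreg, with -0.37 ± 0.06 (edgeR's adjusted p = 4.94e-05). The second of these subset differences ended under an offset for transcript length and GC content (0.076, adjusted p = 0.303), and the first shrank to -0.30 (adjusted p = 3.62e-04). The KO effects were -0.45 in eTreg and -0.83 in cTreg under the same offset. Foxp3 exons share bases with the annotated genes Ccdc22 (590 bases) and Ppp1r3f (266 bases) on the other strand. These had 177 to 492 and 182 to 437 counts per library, against 3014 to 5337 for Foxp3. Flicr on the same strand shares 853 bases and Gm36995 on the other strand 373, and neither was among the counted symbols. Without a stated strand setting, reads in these stretches cannot be assigned, and a strand setting would not separate those shared with Flicr.

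Because Foxp3 and Gpr83 were the genes of the 9 with the lowest adjusted p and the largest fall across the KO comparisons, the 250 bases before a RefSeq start of each are shown, from GRCm38.p6 (mm10), plus strand. Of the 9 genes 7 had an entry in the promoter table, with 8 starts in all. Capitals mark a match to TTCNNNGAA, the core letters of a STAT site, searched on both strands together with the forkhead core TGTTTAC and the Runx core TGTGGT. The Foxp3 window is chrX:7580233-7580482 and the Gpr83 window is chr9:14859960-14860209.
Foxp3: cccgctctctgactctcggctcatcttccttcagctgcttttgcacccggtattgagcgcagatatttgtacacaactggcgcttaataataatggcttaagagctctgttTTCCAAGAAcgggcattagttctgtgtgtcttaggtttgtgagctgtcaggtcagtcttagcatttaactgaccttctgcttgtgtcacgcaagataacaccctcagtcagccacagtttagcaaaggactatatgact
Gpr83: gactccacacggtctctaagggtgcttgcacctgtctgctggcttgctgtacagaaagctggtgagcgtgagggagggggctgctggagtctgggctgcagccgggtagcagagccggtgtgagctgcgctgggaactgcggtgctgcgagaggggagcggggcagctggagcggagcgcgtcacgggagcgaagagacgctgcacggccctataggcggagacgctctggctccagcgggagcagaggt
The Foxp3 window, before the second of the 2 starts listed for the gene, held 1 STAT match and none to the other motifs, and the Gpr83 window held none of the 3. The window before the first Foxp3 start, not printed, held none of the 3 either. Among the 8 windows of these genes that was the only STAT match. The Swap70 window held 1 forkhead and 1 Runx match, and the Izumo1r window held 1 Runx match. Over 32851 promoter windows of 250 bases, 7.02% held the STAT letters, 3.17% the forkhead letters and 14% the Runx letters. A match is a run of letters and not a measured binding site.

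Ikzf4, which encodes Eos, a corepressor partner of Foxp3 (chromosome 10, 128630843 to 128645991, minus strand), fell most in the central gate. Its level was 103, 97.5 and 99.6 CPM in KO cTreg, against 186, 171 and 191 CPM in WT cTreg. In the effector gate it was 169, 132 and 159 CPM in KO eTreg, against 183, 194 and 179 CPM in WT eTreg. The groups were apart in both gates, widely in cTreg and narrowly in eTreg. The log2 fold change was -0.27 ± 0.07 in eTreg (SE, n = 3 per group, edgeR's adjusted p = 0.0353) and -0.87 ± 0.08 in cTreg (7.49e-07), and the difference between them of 0.60 ± 0.11 passed the test (edgeR's adjusted p = 0.00333). WT eTreg and WT cTreg did not differ in Ikzf4 beyond their spread (0.020 ± 0.07, adjusted p = 0.818), whereas KO eTreg stood above KO cTreg by 0.62 ± 0.08 (adjusted p = 1.86e-06). The call in eTreg ended in a fit of only the 6 eTreg libraries (adjusted p = 0.107), in the same fit with a replicate block (0.156), without KO cTreg replicate 3 (0.0546), and without KO eTreg replicate 2 (0.115) or 3 (0.0704) or WT eTreg replicate 1 (0.0746), 2 (0.135) or 3 (0.0665).

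Ikzf2, which encodes Helios, a factor of stable and thymus-derived Tregs (chromosome 1, 69531214 to 69687245, minus strand), moved the other way. It stood at 2161, 2125 and 2254 CPM in KO eTreg, against 1872, 1829 and 1924 CPM in WT eTreg. In the central gate it stood at 780, 783 and 766 CPM in KO cTreg, against 545, 620 and 598 CPM in WT cTreg. The 4 groups did not overlap at any step of the order KO eTreg, WT eTreg, KO cTreg, WT cTreg. It was higher in KO than in WT cells by 0.22 ± 0.05 on the log2 scale in eTreg (SE, n = 3 per group, edgeR's adjusted p = 0.0173) and by 0.40 ± 0.05 in cTreg (2.57e-05). The eTreg call ended without KO eTreg replicate 3 (adjusted p = 0.0923) or WT eTreg replicate 1 (0.0536) or 2 (0.0865). The gap between the gates was larger than the KO effect, at 1.67 ± 0.05 for WT eTreg against WT cTreg and 1.49 ± 0.05 for KO eTreg against KO cTreg (edgeR's adjusted p = 3.50e-13 and 1.65e-12). With the length and GC offset these gaps shrank to 0.95 and 0.73, both still past the threshold.

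Plagl1, the gene of an imprinted zinc finger factor also called Zac1 (chromosome 10, 13060504 to 13131694, plus strand), was the lowest of the 9. It stood at 20.2, 17.4 and 18.8 CPM in KO eTreg, against 19.1, 27.2 and 22.2 CPM in WT eTreg, and the groups overlapped. Central cells had 6.67, 4.69 and 4.75 CPM in KO cTreg, against 9.46, 9.59 and 11.3 CPM in WT cTreg, with no overlap. It fell in KO cTreg (log2 fold change -0.92 ± 0.16 SE, n = 3 per group, edgeR's adjusted p = 4.89e-04), while the value in eTreg, -0.28 ± 0.13, missed the threshold (adjusted p = 0.240). The difference between these effects was not called. It passed in edgeR's test without KO cTreg replicate 1 (0.81, adjusted p = 0.0359) or WT eTreg replicate 2 (0.79, adjusted p = 0.0401). Plagl1 was higher in the effector gate in both genotypes, by 1.18 ± 0.14 in WT and 1.82 ± 0.15 in KO cells (edgeR's adjusted p = 1.11e-06 and 1.65e-08).

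**Figure D1:**
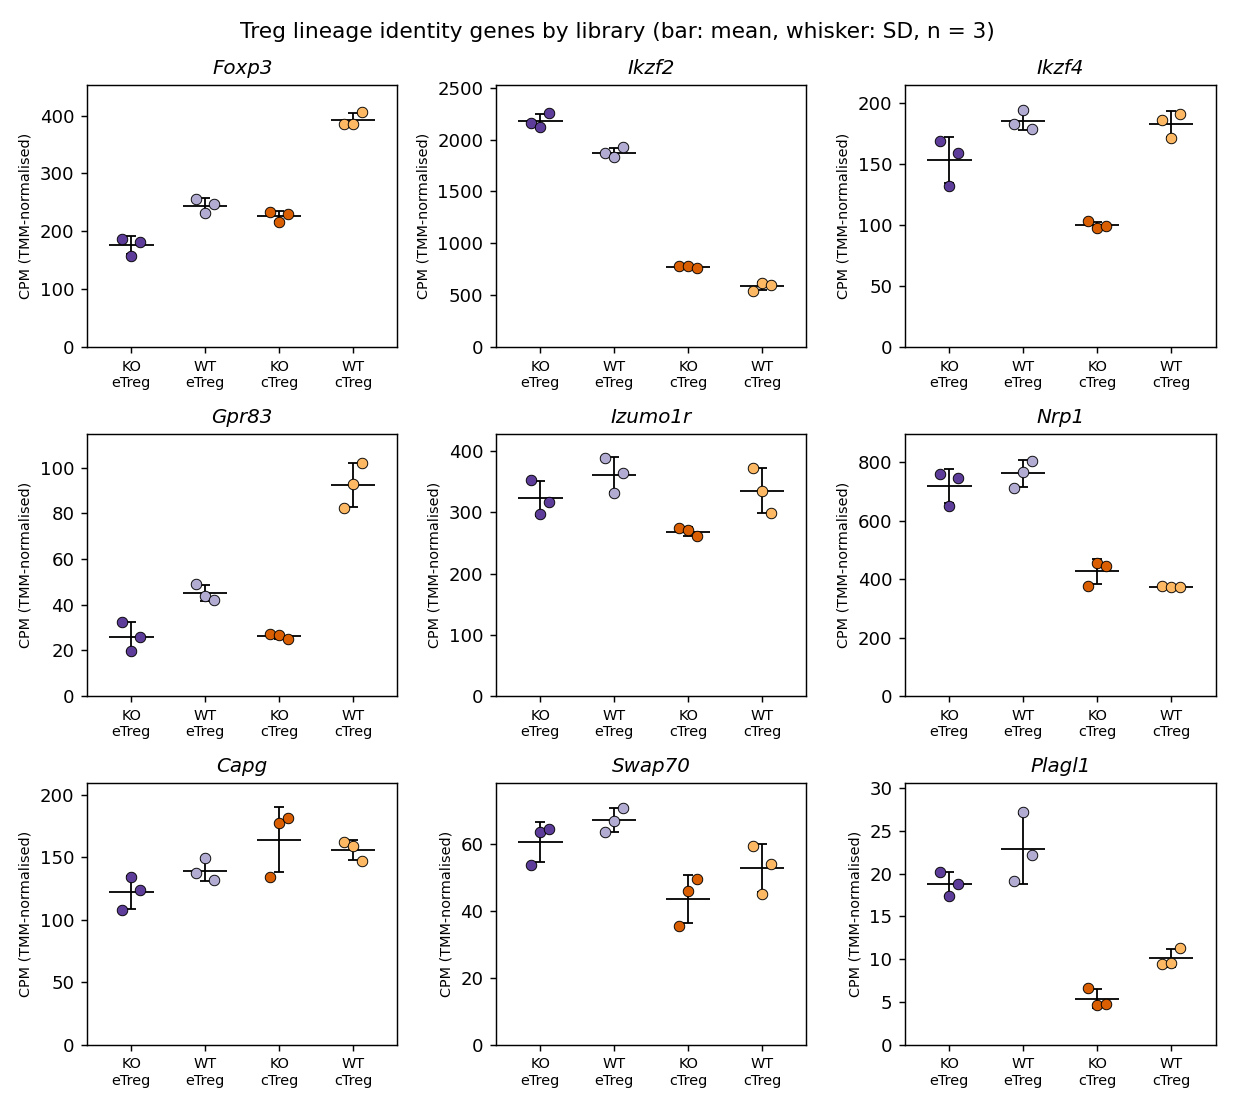
Levels of the 9 genes in every library, in TMM-normalised CPM on a linear axis from 0; each point is a library, bars are group means and whiskers SD (n = 3), with KO and WT eTreg left and KO and WT cTreg right. Foxp3 and Gpr83 are highest in WT cTreg (392.5 and 92.3 CPM on average), while Ikzf2 is highest in KO eTreg (2180 CPM).

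Gpr83, a G protein-coupled receptor gene long used as a Treg marker (chromosome 9, 14860210 to 14870789, plus strand), had the largest fall of the 9 in both gates. It stood at 32.3, 19.5 and 26.0 CPM in KO eTreg, against 49.0, 43.9 and 42.1 CPM in WT eTreg. In the central gate it was 27.2, 26.8 and 24.9 CPM in KO cTreg, against 82.4, 92.6 and 102 CPM in WT cTreg. Each KO group lay wholly below its WT group. The log2 fold change was -0.80 ± 0.15 in eTreg (SE, n = 3 per group, edgeR's adjusted p = 0.00750) and -1.81 ± 0.15 in cTreg (4.57e-06), a difference of 1.01 ± 0.21 between the gates (edgeR's adjusted p = 0.0177). That difference lost its call without KO cTreg replicate 2 (adjusted p = 0.0606) or 3 (0.0547), KO eTreg replicate 3 (0.0521) or WT eTreg replicate 2 (0.0515). Among WT cells the gene was lower in eTreg than in cTreg (-1.04 ± 0.14, adjusted p = 2.98e-05), whereas the KO groups overlapped at means of 25.95 CPM in eTreg and 26.3 CPM in cTreg (-0.023 ± 0.15, adjusted p = 0.901, interval of 2 SE from -0.33 to 0.28).

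Izumo1r, the folate receptor family gene also known as Folr4 or Juno (chromosome 9, 14885814 to 14903949, minus strand), lies 15024 bases from Gpr83 and faces it. It stood at 353, 298 and 317 CPM in KO eTreg, against 389, 332 and 364 CPM in WT eTreg, which overlapped. In the central gate it was 274, 271 and 261 CPM in KO cTreg, against 372, 335 and 299 CPM in WT cTreg, with no overlap. It fell in KO cTreg (log2 fold change -0.32 ± 0.08 SE, n = 3 per group, edgeR's adjusted p = 0.00747), beside the -1.81 of its neighbour. In eTreg the value was -0.17 ± 0.08 (adjusted p = 0.268), and it passed under a replicate block fitted to the 6 eTreg libraries (-0.18, adjusted p = 0.00344, against 0.238 in those libraries without the block). The difference between the cTreg and eTreg effects was not called, and over all alternatives its adjusted p lay between 0.292 and 0.799. WT eTreg and WT cTreg overlapped (0.11 ± 0.08, adjusted p = 0.231), but with the length and GC offset the gene was higher in WT eTreg by 0.70 (adjusted p = 2.47e-05). It also passed in edgeR's test with library-size scaling without Rn45s (0.18, adjusted p = 0.0463) and without WT cTreg replicate 1 (0.19, adjusted p = 0.0448). KO eTreg stood above KO cTreg by 0.26 ± 0.08 (edgeR's adjusted p = 0.00784), and by 0.96 with the offset.

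Nrp1, the gene of a semaphorin and VEGF coreceptor that marks thymus-derived Tregs in mice (chromosome 8, 128358604 to 128503363, plus strand), separated the gates rather than the genotypes. It stood at 761, 652 and 745 CPM in KO eTreg, against 712, 768 and 806 CPM in WT eTreg. Central cells had 377, 456 and 446 CPM in KO cTreg, against 378, 373 and 372 CPM in WT cTreg. KO and WT overlapped in both gates, and neither KO value passed: -0.08 ± 0.07 in eTreg (SE, n = 3 per group, edgeR's adjusted p = 0.597, interval of 2 SE from -0.23 to 0.06) and 0.19 ± 0.07 in cTreg (0.0688, from 0.04 to 0.33). Without KO cTreg replicate 1, or without KO eTreg replicate 2, the cTreg value passed (0.27 and 0.19, adjusted p = 0.00710 and 0.0400). The eTreg level was above the cTreg level by 1.03 ± 0.07 in WT and by 0.76 ± 0.07 in KO cells (edgeR's adjusted p = 3.57e-09 and 1.22e-07), and by 0.52 and 0.26 with the length and GC offset.

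Capg, which encodes an actin filament capping protein of the gelsolin family (chromosome 6, 72544391 to 72562983, plus strand), stood at 108, 134 and 124 CPM in KO eTreg and 137, 149 and 132 CPM in WT eTreg. It stood at 134, 177 and 181 CPM in KO cTreg and 162, 159 and 147 CPM in WT cTreg. All neighbouring groups in its order overlapped. The KO values were -0.19 ± 0.11 in eTreg (SE, n = 3 per group, edgeR's adjusted p = 0.385) and 0.08 ± 0.11 in cTreg (0.655); under a replicate block fitted to the 6 eTreg libraries the first passed (-0.21, adjusted p = 0.0115, against 0.171 in those libraries without the block). KO eTreg were lower than KO cTreg in Capg, with a log2 fold change of -0.43 ± 0.11 (edgeR's adjusted p = 0.00415), a direction that turned to 0.28 with the length and GC offset.

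Swap70, which encodes a phosphoinositide-binding protein of actin and Rac signalling (chromosome 7, 110221711 to 110283506, plus strand), stood at 53.7, 63.5 and 64.3 CPM in KO eTreg and 63.5, 66.8 and 70.7 CPM in WT eTreg. It was 35.6, 45.8 and 49.4 CPM in KO cTreg and 59.3, 44.9 and 54.1 CPM in WT cTreg. KO and WT overlapped in both gates. The KO values were -0.15 ± 0.12 in eTreg (SE, n = 3 per group, edgeR's adjusted p = 0.570, interval of 2 SE from -0.38 to 0.09) and -0.27 ± 0.13 in cTreg (0.138, from -0.52 to -0.02). The cTreg value passed without WT cTreg replicate 2 (-0.38, adjusted p = 0.0400). Swap70 was higher in eTreg than in cTreg by 0.35 ± 0.12 among WT cells (edgeR's adjusted p = 0.0223), a call that ended without WT cTreg replicate 2 (0.0903) or WT eTreg replicate 2 (0.0509) or 3 (0.0714) and with the length and GC offset (0.0510), and by 0.47 ± 0.12 among KO cells (0.00414).

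**Figure D2:**
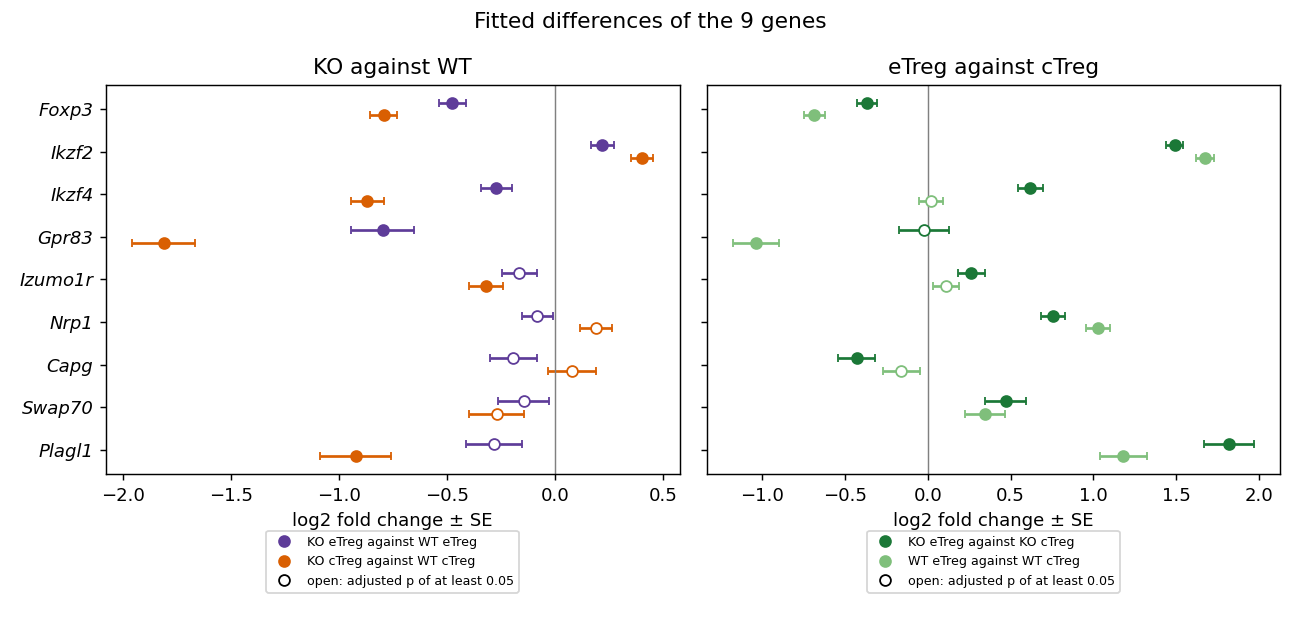
Fitted log2 fold changes with SE of the 9 genes, KO against WT in eTreg and cTreg (left) and eTreg against cTreg in KO and WT cells (right); filled points have an adjusted p under 0.05. In the left panel Gpr83 lies furthest from 0 (-1.81 in cTreg) and Ikzf2 is the only gene with filled points above 0.

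Counted together, in KO eTreg 3 of the 9 genes fell (Foxp3, Ikzf4 and Gpr83) and Ikzf2 rose, and in KO cTreg 5 fell (the same 3 with Izumo1r and Plagl1) and Ikzf2 rose. By the same rule 6.65% of all 12461 genes were called in KO eTreg, 3.4% lower and 3.25% higher, and 27.5% in KO cTreg, 12.6% lower and 14.8% higher. A fit of only the 6 eTreg libraries called 771 genes there, 3 of the 9 among them, and the same fit with a replicate block 1712, with 5 of the 9. With the length and GC offset the cTreg split over all genes was 1565 higher and 1980 lower, where the fit without it had 1847 and 1574. Scaling by library size without Rn45s moved the eTreg split over all genes from 405 higher and 424 lower to 301 and 545. The median log2 fold change of the 9 genes was -0.19 in eTreg and -0.32 in cTreg, against 0.0070 and 0.0014 over all genes. The difference between the gates was called for 2 of the 9, Ikzf4 and Gpr83, both with the larger fall in cTreg; over all genes 3.8% were called, 0.803% in that direction and 3.0% in the other. Between gates with CD25 intact, 4 were higher in WT eTreg than in WT cTreg (Ikzf2, Nrp1, Plagl1 and Swap70) and 2 lower (Foxp3 and Gpr83), where 71.5% of all genes were called, 35.7% higher and 35.8% lower. Between gates without CD25, 6 were higher in KO eTreg than in KO cTreg and 2 lower (Foxp3 and Capg), where 72.0% of all genes were called, 36.1% higher and 35.8% lower. With the length and GC offset 7 of the 9 were called higher in KO eTreg and 0 lower: the call of Foxp3 ended and that of Capg turned. Over all genes 6838 were called there with the offset, 3445 higher and 3393 lower. In these 4 comparisons the called genes of the 9 were also the ones whose groups did not overlap; over all genes the groups were apart, higher and lower, for 13.5% and 11.7% in KO against WT eTreg, 20.9% and 19.5% in KO against WT cTreg, 37.4% and 37.6% in WT eTreg against WT cTreg, and 37.5% and 37.1% in KO eTreg against KO cTreg. The KO comparisons and the subset comparisons share libraries, so the values are given side by side only.

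Replicate 2 of KO eTreg was the lowest of its group in Foxp3, Ikzf2, Ikzf4, Gpr83, Izumo1r, Nrp1 and Plagl1. It also had 11.4 CPM of Klrb1c, an NK cell receptor gene, against 0.346 and 0.831 CPM in the other two libraries of the group. Without it the KO effect in eTreg was -0.40 for Foxp3 (adjusted p = 7.05e-04), -0.63 for Gpr83 (0.00240) and 0.24 for Ikzf2 (0.0235), while that of Ikzf4 lost its call, as given above.

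Within a library, reads of a gene relative to Foxp3 do not depend on the scaling between libraries. These ratios were chosen after the values were seen and are given without a test. Ikzf2 reads were 11.6, 13.4 and 12.4 times those of Foxp3 in KO eTreg, against 7.31, 7.93 and 7.80 times in WT eTreg, and 3.34, 3.61 and 3.34 times in KO cTreg, against 1.41, 1.61 and 1.47 times in WT cTreg. All 6 KO libraries thus lay above the WT libraries of their gate. Foxp3, the denominator, was itself lower in KO than in WT libraries in both gates, and a ratio moves with either gene. The Nrp1 ratio was higher in KO libraries, although Nrp1 itself was not called, at 4.07, 4.12 and 4.09 in KO eTreg, against 2.78, 3.33 and 3.27 in WT eTreg, and at 1.61, 2.10 and 1.94 in KO cTreg, against 0.980, 0.969 and 0.913 in WT cTreg. So was the Izumo1r ratio, although the Izumo1r level fell in KO cTreg, at 1.74 to 1.89 in KO eTreg and 1.44 to 1.52 in WT eTreg, and at 1.14 to 1.25 in KO cTreg and 0.735 to 0.965 in WT cTreg. The Ikzf4 ratio overlapped between genotypes in both gates, at 0.835 to 0.904 in KO eTreg and 0.713 to 0.842 in WT eTreg, and at 0.434 to 0.450 in KO cTreg and 0.444 to 0.483 in WT cTreg. The Gpr83 ratio was lower in KO cTreg (0.109 to 0.124) than in WT cTreg (0.214 to 0.250), and overlapped between KO eTreg (0.123 to 0.173) and WT eTreg (0.171 to 0.191).

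**Figure D3:**
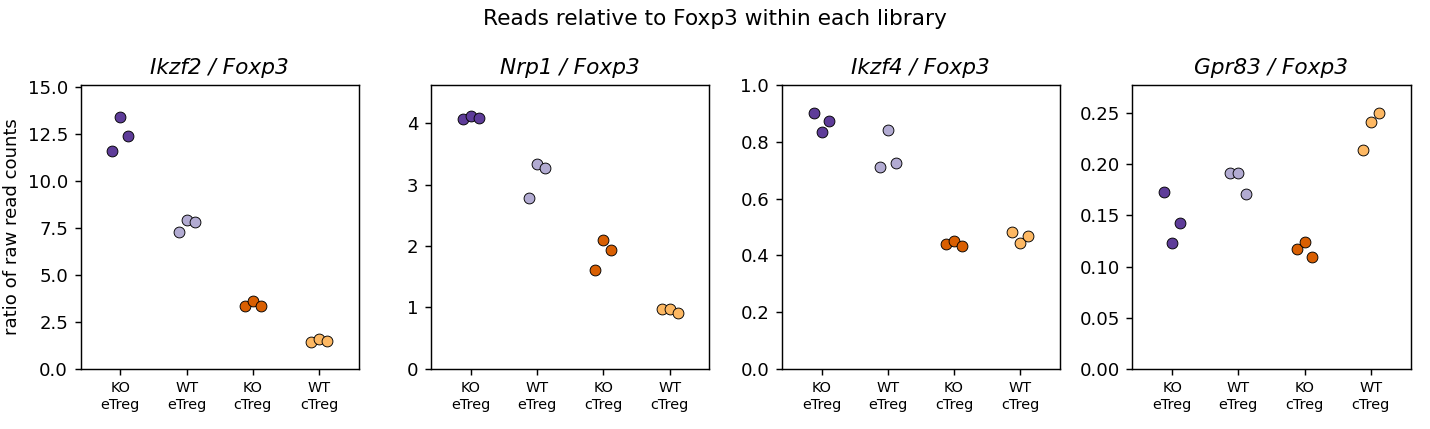
Ratio of raw read counts of Ikzf2, Nrp1, Ikzf4 and Gpr83 to Foxp3 within each library, on linear axes from 0; each point is a library, with KO left of WT in each gate. The Ikzf2 ratio is highest in KO eTreg (11.6 to 13.4) and lowest in WT cTreg (1.41 to 1.61), while the Ikzf4 ratio overlaps between KO and WT in each gate.

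Per kilobase of annotated exon, which allows genes to be compared, Ikzf2 had the highest level in KO eTreg (188 ± 5.73 CPM per kb, SD, n = 3) and in WT eTreg (161 ± 4.14), followed by Izumo1r (139 ± 12 and 156 ± 12). In the central gate Izumo1r led, at 116 ± 3.05 CPM per kb in KO cTreg and 145 ± 15.8 in WT cTreg. Foxp3 stood at 38.4 ± 3.35 CPM per kb in KO eTreg, 53.4 ± 2.82 in WT eTreg, 49.5 ± 1.89 in KO cTreg and 85.8 ± 2.76 in WT cTreg. It was the second highest of the 9 in WT cTreg and the fifth in KO eTreg. Plagl1 was lowest in all groups, at 0.687 to 2.92 CPM per kb on average.

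The genes with a profile over the 12 libraries most like that of Foxp3 were not among the other 8, with genes of low level left out. By the root mean square difference of log2 CPM, each gene centred on its own mean, the nearest of 8913 tested genes, those averaging 3 or more in log2 CPM, were Snhg17 (0.0796), 2410002F23Rik (0.103), Ahcyl2 (0.114), Slc22a5 (0.117) and Ttc28 (0.119), against a median of 0.466 over those genes. Snhg17, a small nucleolar RNA host gene, averaged 18.0 ± 0.30 CPM in KO eTreg, 24.5 ± 0.72 in WT eTreg, 23.2 ± 1.24 in KO cTreg and 37.9 ± 2.05 in WT cTreg (SD, n = 3 each). Of the 8 others, Capg (0.385) and Gpr83 (0.396) lay closest, at ranks 2512 and 2823, and Ikzf2 (1.16) lay furthest, at rank 8701. This distance depends on the size of the changes as well as on their pattern, so a gene that hardly moves can lie close. Capg was called for KO against WT in neither gate, while Gpr83 had the same order of group means as Foxp3.

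Beyond the 9, 30 other Treg signature genes moved in both directions. In KO eTreg 4 rose and 6 fell, with a median log2 fold change of -0.08, where 3.25% of all genes rose and 3.4% fell. In KO cTreg 17 rose and 9 fell, with a median of 0.46, where 14.8% of all genes rose and 12.6% fell; the list includes the deleted gene Il2ra. Lrrc32, the gene of GARP, a surface anchor of latent TGF-beta, stood at 46.6 ± 3.14 CPM in KO eTreg against 143.8 ± 13.2 in WT eTreg, and at 104 ± 14.8 in KO cTreg against 301 ± 25.9 in WT cTreg (SD, n = 3 each; log2 fold changes -1.63 ± 0.11 and -1.54 ± 0.10, edgeR's adjusted p = 2.93e-06 and 6.34e-07). Socs2, a feedback gene induced by STAT5, fell by 1.35 and 1.73 on the log2 scale in eTreg and cTreg. Tigit, an inhibitory receptor gene, rose, at 190 ± 5.53 CPM in KO eTreg against 106.5 ± 4.96 in WT eTreg and at 62.0 ± 2.69 in KO cTreg against 5.24 ± 0.17 in WT cTreg. So did Prdm1, the gene of Blimp-1, by 0.65 ± 0.11 in eTreg and 1.85 ± 0.13 in cTreg. Il10, a suppressive cytokine, rose in KO cTreg to 2.81 ± 0.50 CPM, against 0.129 ± 0.159 in WT cTreg, and overlapped in eTreg (16.0 ± 3.62 CPM in KO and 12.4 ± 3.16 in WT).

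Of 15 tested genes (16 listed) that Tregs express less than conventional T cells, 3 rose and 1 fell in KO eTreg (median 0.20), where 3.25% of all genes rose and 3.4% fell. In KO cTreg 8 rose and 1 fell (median 0.52), where 14.8% of all genes rose and 12.6% fell. Pde3b, a phosphodiesterase gene known to be repressed by Foxp3, rose by 0.85 ± 0.18 in eTreg (SE, n = 3 per group, edgeR's adjusted p = 0.0205) and by 1.45 ± 0.19 in cTreg (2.62e-04). Tcf7, a factor of resting and memory T cells, rose by 0.32 ± 0.07 and 0.42 ± 0.07. The effector cytokine genes Il4 and Ifng rose in KO cTreg and remained low there, at 1.80 ± 0.11 and 2.23 ± 0.55 CPM, against 0.147 ± 0.189 and 0.414 ± 0.214 in WT cTreg. Igfbp4, known from resting T cells, fell in both gates, to 2.69 ± 1.10 CPM in KO eTreg against 17.8 ± 10.1 in WT eTreg, and to 140 ± 20.7 in KO cTreg against 702.5 ± 42.6 in WT cTreg.

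Of 24 factors known to act on the Foxp3 locus, 1 rose and 2 fell in KO eTreg (median 0.01), where 6.65% of all genes were called, and 6 rose and 4 fell in KO cTreg (median 0.04), where 27.5% were. Bach2, a repressor that restrains effector Treg differentiation, fell by 0.54 in eTreg and by 0.67 in cTreg on the log2 scale, and Foxo1, an activator of Foxp3, by 0.17 and 0.23. Gfi1, a zinc finger repressor, fell by 0.57 in cTreg, and its value of -0.12 in eTreg missed the threshold (adjusted p = 0.610, with 0.156 for the difference). Runx3, a Runt family factor, rose by 0.76 ± 0.09 in cTreg, and Elf1, an ETS factor, by 0.17 ± 0.05 in eTreg and 0.40 ± 0.05 in cTreg. Of 21 partners of the Foxp3 protein, some of them also in the previous list, 2 rose and 1 fell in KO eTreg (median 0.03) and 7 rose and 1 fell in KO cTreg (median 0.07), beside the same shares of 6.65% and 27.5% over all genes. Hif1a, the oxygen-sensing factor, rose by 0.47 ± 0.06 and 0.79 ± 0.06, Irf4, a factor of effector Tregs, rose by 0.84 ± 0.08 in cTreg (0.03 ± 0.08 in eTreg), and Foxp1, a forkhead relative, fell by 0.30 and 0.50.

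**Figure D4:**
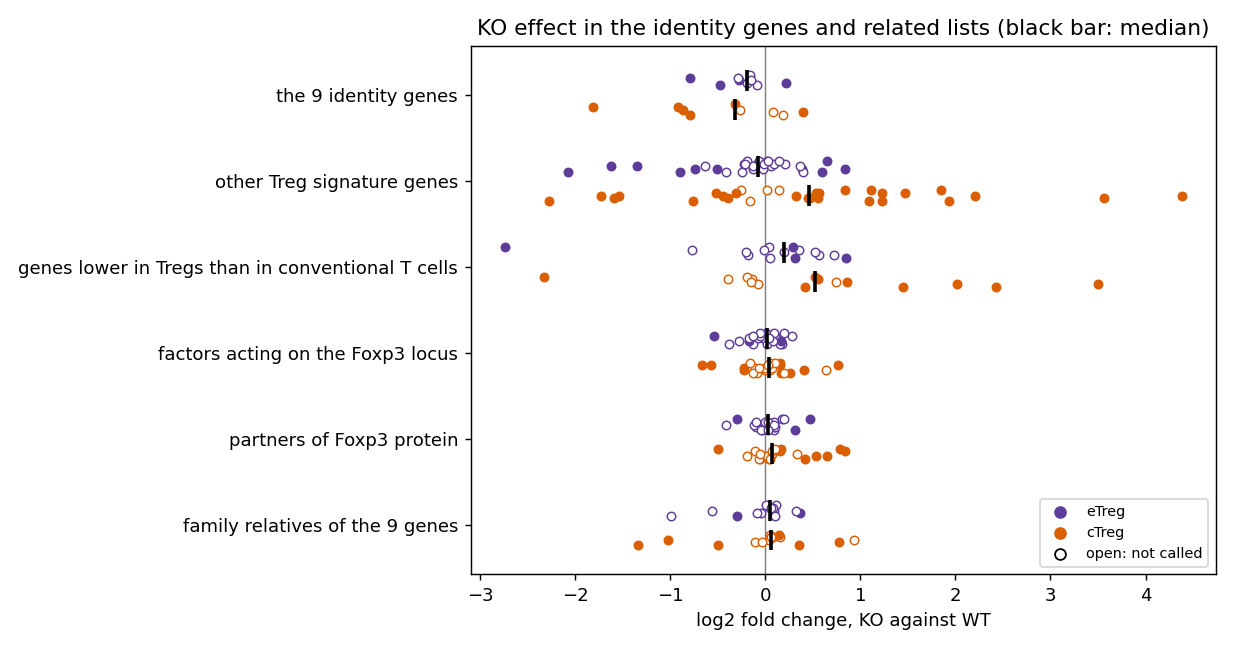
Log2 fold changes, KO against WT, of the tested genes of each list in eTreg (purple, upper rows) and cTreg (orange, lower rows); filled points are called at an adjusted p under 0.05 and black bars are list medians. The identity genes lie mostly below 0 (medians -0.19 and -0.32), while among the other Treg signature genes Il2ra lies at -2.28 and Tigit at 3.56 in cTreg.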

How the data were processed

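Treg RNA was measured in 12 libraries, 4 groups of 3. The authors deposited raw read counts of genes, by symbol, in 1 table. Libraries were made from RNeasy-purified total RNA with KAPA RNA HyperPrep and RiboErase, per the labels' protocols. HISAT2 2.2.1, Cell Ranger and mm10 are named per the submitters' processing notes without a role; no source used here names the counting tool, annotation or strand setting.

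The fit used edgeR 4.0.16 under R 4.3.3: filterByExpr, TMM, a robust quasi-likelihood fit over all 12 libraries (common biological coefficient of variation 0.0768), F-tests, two-sided, and Benjamini-Hochberg adjustment over 12461 genes in each of 5 comparisons. A gene was called, and is said to have risen or fallen, at an adjusted p under 0.05. The SE is the log2 fold change divided by the square root of F. The steps were tested on simulated data. Coordinates, exon lengths and overlaps are from GENCODE vM21 (mm10), and promoters from RefSeq.

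The 9 genes, the gene lists and the tests were chosen with earlier results of these data known. Named beyond the 9 are up to 2 called genes per direction, list and gate with no overlap between groups. Alternatives were DESeq2 1.42.0 (size factors, Wald test), limma 3.58.1 (voom), no filter, a filter that kept genes with 1 CPM or more in 3 or more libraries, library-size scaling without Rn45s, the replicate block, only the 6 libraries compared and leaving out each library; the length and GC offset was added after the data were seen. Deviations from group means of KO and WT eTreg libraries with the same replicate number had correlations of 0.257, 0.341 and 0.166, though no label names a shared day. The other comparisons had values from -0.175 to 0.229. Libraries with unlike numbers were not compared, so whether the numbers pair libraries was not tested. Pairs of libraries of a group had a chi-square per degree of freedom of 3.62 to 9.94, more than counting error alone gives, so none was a copy of another. This does not exclude repeat libraries made from the same RNA. The labels call each library a biological replicate of pooled mice.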

Additional observations from a re-analysis of the deposited data

Results flagged for a closer look

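The KO effect differed between the gates by edgeR's interaction test for 2 of the 9 identity genes, where 3.8% of all genes were called. The difference, eTreg minus cTreg, was 1.01 ± 0.21 on the log2 scale for Gpr83 (n = 3 per group, edgeR's adjusted p = 0.0177) and 0.60 ± 0.11 for Ikzf4 (adjusted p = 0.00333). Both fell more in KO cTreg, and 0.803% of all genes were called with a difference above 0. The Gpr83 call ended in 4 of 20 alternatives.

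Among the other genes named in the text, 8 had a KO effect that was lower in eTreg than in cTreg by the same edgeR test. Over all genes 3.0% were called in that direction and 0.803% in the other. The named genes were picked for large KO effects in the same libraries, so the count of 8 is not independent of that choice. The differences were -4.02 for Il10 (adjusted p = 0.00254), -2.77 for Il4 (0.00926), -2.73 for Tigit (1.05e-11) and -2.37 for Ifng (0.0160). They were -1.20 for Prdm1 (0.00153), -0.82 for Irf4 (8.63e-04), -0.48 for Runx3 (0.0433) and -0.32 for Hif1a (0.0498). Il10, Il4 and Ifng were below 1 CPM on average in WT cTreg, so the sizes of their fitted differences rest on few reads and on the prior count.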

How the results depend on the processing

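Of 972 refits of single identity genes under the alternatives, 926 kept their direction and side of the threshold, 19 lost a call, 20 gained one and 7 turned direction. The calls of Foxp3, Ikzf4, Gpr83, Izumo1r, Plagl1 and Ikzf2 for KO against WT cTreg, and of Foxp3 and Gpr83 for KO against WT eTreg, held under every alternative run. The turned values were those of the length and GC offset for Foxp3 in KO eTreg against KO cTreg (0.076) and for Capg in WT (0.44) and KO cells (0.28). The others had values near 0 as reported: Gpr83 in KO eTreg against KO cTreg with scaling without Rn45s (0.019) or without KO eTreg replicate 2 (0.15, the end of a range from -0.21 over left-out libraries), and Ikzf4 in WT eTreg against WT cTreg without WT cTreg replicate 2 (-0.029) or WT eTreg replicate 2 (-0.016), in a range up to 0.0505. The cause was not tested. A fit of only the 6 eTreg libraries called 771 genes for KO against WT, and the same fit with a replicate block 1712, compared with 829 as reported and 857 with the block over all 12 libraries. Within the fits of 6 libraries the block changed 2 calls of the 9 genes, those gained by Izumo1r and Capg in KO against WT eTreg; Ikzf4 in eTreg was lost, and Capg in WT eTreg against WT cTreg gained (-0.15, adjusted p = 0.0333), without the block too. Over all 12 libraries the block brought the Foxp3 difference between the gates past the threshold (0.32, adjusted p = 0.0180) and changed no other call of the 9. With the length and GC offset 4 of the 9 differed between the gates, and the split of all genes was 212 higher and 360 lower, compared with 100 and 374. Leaving out 1 library gave 455 to 890 genes and 2 to 4 of the 9 called in KO against WT eTreg, and 314 to 570 genes and 1 to 5 of the 9 for the difference between gates. The lowest eTreg counts came without WT eTreg replicate 2 (455), KO eTreg replicate 3 (462) or WT eTreg replicate 3 (497), and 2 of the 9 were called without KO eTreg replicate 3 or WT eTreg replicate 1 or 2. For the difference, 314 genes were called without KO cTreg replicate 2, 1 of the 9 without KO cTreg replicate 2 or 3 or KO eTreg replicate 3, and 5 without KO cTreg replicate 1. With 3 libraries a group, small effects such as those of Nrp1, Capg and Swap70 are bounded only by their intervals.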

Other observations

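Of 14 tested family relatives of the 9 genes (20 listed, of which Juno is another name of Izumo1r), 1 rose and 1 fell in KO eTreg, with a median log2 fold change of 0.05, and 3 rose and 3 fell in KO cTreg, with a median of 0.06. Over all genes 6.65% were called in KO eTreg and 27.5% in KO cTreg. Gsn, the gene of the actin-severing protein gelsolin and a relative of Capg, stood at 14.95 to 19.4 CPM in KO eTreg against 12.6 to 13.8 in WT eTreg, and at 30.01 to 32.8 in KO cTreg against 17.4 to 19.2 in WT cTreg (lowest to highest, n = 3 each). It rose by 0.36 ± 0.10 and 0.77 ± 0.10 on the log2 scale, with edgeR's adjusted p-values of 0.0353 and 1.65e-05. Capzb, a subunit of the actin capping protein, is listed for its function and not as a gelsolin family member. It rose in KO cTreg by 0.35 ± 0.08 (edgeR's adjusted p = 0.00372). Nrp2, the relative of Nrp1, was low and fell in KO cTreg, to 2.42 ± 0.21 CPM against 6.16 ± 2.81 in WT cTreg (SD, n = 3 each; edgeR's adjusted p = 0.0183). Plag1, the relative of Plagl1, fell in KO cTreg to 2.12 ± 0.38 CPM, against 4.30 ± 0.87 in WT cTreg (adjusted p = 0.00251). In both genes the KO and WT cTreg libraries were apart, and both missed the threshold in eTreg (edgeR's adjusted p = 0.371 for Nrp2 and 0.137 for Plag1).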
